A study of Mus musculus with 12 samples.

Results

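The CpGs described here lay deep inside genes. They were positions of the deposited methylation calls that fell within a protein-coding gene but in no exon (GENCODE vM1 annotation, mouse build mm9), more than 5000 bp from every transcription start of a protein-coding gene, on an autosome, and with 10 or more reads in all 3 samples of at least 1 group. No methylation value was used to choose them. There were 45725 such cytosines, 11.002% of the 415607 autosomal cytosines that met the same depth rule, and they lay in 5962 genes. Each group contributed a different number: 7058 cytosines in the DMSO group, 11659 in DBP, 39578 in DBP_agent and 26852 in DBP_BR. Of all members, 20954 (45.8%) were covered in 1 group, 13838 (30.3%) in 2 groups, 7215 (15.8%) in 3 groups and 3718 (8.13%) in all 4. Levels were compared between groups over these 3718 cytosines, which had 10 or more reads in all 12 samples and lay in 1467 genes.

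The samples were soft tissues of the oral cavity of female B6C3F1/J mice, with 3 samples in each of 4 groups. The mice were 8 weeks old on entering the study, before the 5 weeks of treatment. Mice of the DBP group had dibenzo[def,p]chrysene (DBP), a polycyclic aromatic hydrocarbon of tobacco smoke, applied to the mouth for 5 weeks, with 24 nmol given 3 times in each week, and tissue was taken 48 h after the last dose. The DMSO group received the vehicle alone. The DBP_agent group received the same DBP together with a chemopreventive agent left unnamed in the labels, and the DBP_BR group the same DBP and a BR extract, so that 9 of the 12 samples came from carcinogen-treated mice and the DBP samples were the common reference of both agent groups. Methylation was read by enhanced reduced representation bisulfite sequencing (ERRBS), in which DNA is cut at CCGG by MspI, short fragments are kept, and unmethylated cytosines are converted so that they read as thymine. The labels do not say whether each sample was 1 animal or a pool, only that soft tissue from several sites of the mouth was combined. The p-values of the permutation tests and of edgeR below thus measure the spread between these samples. Those of the logistic regression treat reads as independent and leave that spread out. The tissue holds epithelium, muscle, vessels, nerve and immune cells, and a change in the methylation of 1 cell type cannot be told apart from a change in the share of that cell type.

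In mammals, methylation of the cytosine in a CpG is kept through cell division by the maintenance methyltransferase. Introns are mostly methylated in somatic tissue, whereas CpG-rich promoters are mostly not. Unmethylated or partly methylated stretches inside introns are often alternative starts, enhancers, or imprinted regions in which only 1 parental copy carries the mark.

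Depth differed between groups. The libraries held 3287367 to 7774032 CpG calls in DMSO, 7515975 to 7974299 in DBP, 16908728 to 39615620 in DBP_agent and 17712547 to 78889043 in DBP_BR. At the 3718 shared cytosines the median depth was 30, 26 and 16 reads in the DMSO samples, 27, 28 and 27 in DBP, 107, 83 and 68 in DBP_agent and 35.5, 75 and 96 in DBP_BR. Both agent groups were thus deeper than both other groups, and depth cannot be told apart from the agents. DBP_BR sample 1 stood apart from the other libraries: it had the most calls but a lower median depth at the shared cytosines than the other samples of both agent groups, and its mean Pearson correlation with the other samples across the 3718 cytosines was 0.771, against 0.821 to 0.870 for the others. These correlations are across cytosines of shared libraries and are a description. Over all pairs, the mean correlation was 0.840 within groups and 0.838 between groups.

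The sequences below show what these loci look like. The first 4 were stretches with little methylation in all 12 samples, the fifth had an intermediate level, and the sixth and seventh were almost fully methylated. They were chosen by their level and show its range, also at like CpG density: Scn4b, Anks1b, Pinx1 and Macrod2 had medians of 11, 9, 9.5 and 13 CpGs per window of 100 bp to each side. All are from the + strand of mm9, and capitals mark the CpGs that were members in all 12 samples.

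Asb18, chr1:91888937-91889016: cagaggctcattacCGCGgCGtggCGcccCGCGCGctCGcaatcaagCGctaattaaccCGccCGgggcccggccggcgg

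Adk, chr14:21895358-21895430: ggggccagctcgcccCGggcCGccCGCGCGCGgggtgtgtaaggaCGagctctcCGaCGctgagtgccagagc

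2610528E23Rik/Filip1l, chr16:57391690-57391764: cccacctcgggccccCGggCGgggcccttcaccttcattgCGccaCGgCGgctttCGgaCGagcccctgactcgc

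Scn4b, chr9:44954066-44954144: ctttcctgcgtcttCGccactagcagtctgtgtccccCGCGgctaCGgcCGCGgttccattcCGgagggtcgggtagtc

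Anks1b, chr10:90181012-90181088: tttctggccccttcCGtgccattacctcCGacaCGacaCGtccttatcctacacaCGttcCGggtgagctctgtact

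Pinx1, chr14:64537584-64537644: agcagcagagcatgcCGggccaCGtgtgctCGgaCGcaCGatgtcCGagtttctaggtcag

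Macrod2, chr2:142136038-142136114: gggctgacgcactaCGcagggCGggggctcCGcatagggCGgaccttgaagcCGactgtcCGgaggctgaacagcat

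The next 4 held CpGs that were called different between DBP and DMSO, and capitals there mark the called CpGs, again on the + strand of mm9. They are shown because this comparison was the closest in depth. DMSO sample 3 was still shallower, with a median of 16 reads at the shared cytosines against 27 or 28 in the DBP samples.

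Spata13, chr14:61342758-61342839: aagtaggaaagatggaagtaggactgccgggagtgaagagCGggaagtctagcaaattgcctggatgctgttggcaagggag

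Arfip1, chr3:84990737-84990818: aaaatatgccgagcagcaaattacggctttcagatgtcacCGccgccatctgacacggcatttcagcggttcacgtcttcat

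Klraq1, chr17:88952464-88952567: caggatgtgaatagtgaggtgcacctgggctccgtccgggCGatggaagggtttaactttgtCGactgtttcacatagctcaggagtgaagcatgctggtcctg

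Disc1, chr8:127736649-127736740: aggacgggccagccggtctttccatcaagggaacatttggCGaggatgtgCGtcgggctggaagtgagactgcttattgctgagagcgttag

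Most intronic members were highly methylated. Averaged over the 12 samples, 54.8% of the 3718 cytosines had a level over 80% and 5.57% had a level under 20%. The mean methylation level was 72.7 ± 0.689% (SD, n = 12), with samples between 71.7% and 74.1%. Cytosines also more than 5000 bp from a start but in an exon had 67.3 ± 0.603% (SD, n = 12, 2052 cytosines). Those outside genes had 60.6 ± 0.563% (SD, n = 12, 6138 cytosines). The median distance to a start was 23.8 kb for intronic, 12.8 kb for exonic and 47.9 kb for intergenic cytosines. Cytosines near protein-coding starts had far less, with 10.4 ± 0.391% (SD, n = 12) over 20158 promoter cytosines. The intronic level was higher than the exonic level in 12 of 12 samples, by 5.43 points. It was higher than the intergenic level in 12 of 12, by 12.1 points. A two-sided exact sign-flip permutation test gave p = 0.000488281 for each, the smallest that 12 samples can give. It measures the spread between samples and not that between cytosines. Among cytosines more than 10000 bp from a start the differences were 2.79 and 12.0 points.

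**Figure D1:**
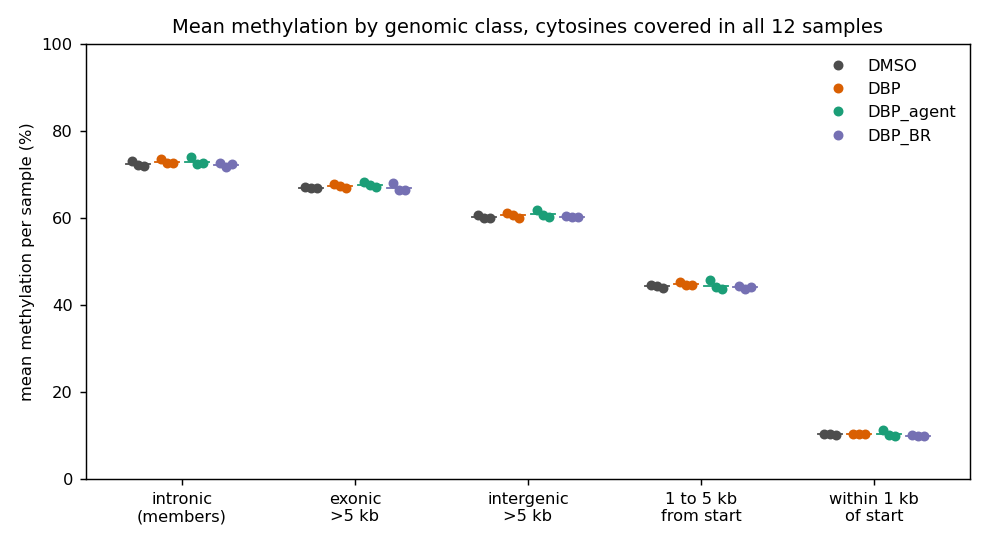
Mean methylation (percent, y axis) of each sample (points) in the 4 groups, for intronic, exonic and intergenic cytosines more than 5000 bp from a start and for cytosines 1 to 5 kb and within 1 kb of a start (x axis); short lines are group means. Intronic cytosines lie between 71.7% and 74.1% in every sample, above the 4 other classes, and the 4 groups overlap.

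The intronic cytosines had fewer CpGs around them than the exonic ones. The window held a median of 5 CpGs for intronic, 9 for exonic and 6 for intergenic cytosines, and 3.87%, 27.2% and 19.3% of them were island-like (500 bp with over 50% GC and an observed to expected CpG ratio over 0.6). Within bins of equal CpG density the exonic comparison turned round. Introns were lower than exons by 3.10 points at 1 to 2 CpGs per window, by 2.94 points at 3 to 4, by 10.03 points at 5 to 8 and by 17.2 points at 9 to 14, in 12 of 12 samples each (exact sign-flip permutation test, p = 0.000488281). At 15 or more CpGs they were lower by 1.14 points, and higher in 2 of 12 samples (exact, p = 0.00488). The difference from intergenic cytosines kept its direction in 12 of 12 samples in each bin, at 1.32, 2.73, 5.03, 5.36 and 7.99 points. These bins were chosen after the data were seen. From the sparsest to the densest they held 68, 234, 689, 642 and 419 exonic cytosines. The sign-flip tests read the same cytosines in each sample, so they do not measure the spread between cytosines.

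Within introns, CpG density went with the widest differences in level. Mean methylation was 79.0% at 1 to 2 CpGs per window (529 cytosines), 76.8% at 3 to 4 (1247), 73.2% at 5 to 8 (1506), 56.5% at 9 to 14 (374) and 20.6% at 15 or more (62), and the last bin was below the first by 56.8 to 59.7 points in each of the 12 samples. In the printed sequences, Adk and Asb18 were of the dense kind, and Macrod2 was island-like by the same rule and yet had 94.9%.

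**Figure D2:**
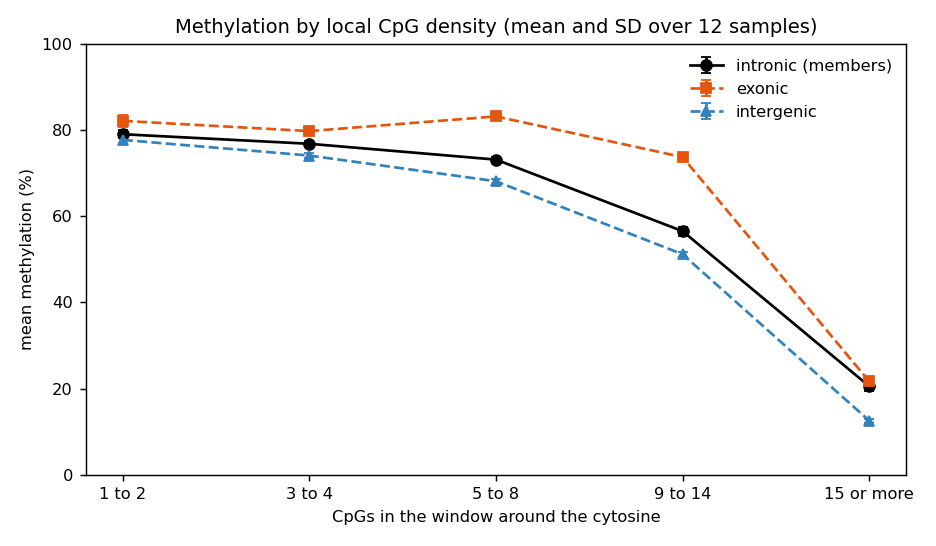
Mean methylation (percent, y axis) by the number of CpGs in the window of 100 bp to each side (x axis) for intronic, exonic and intergenic cytosines more than 5000 bp from a start; points are means over the 12 samples and bars are the SD between samples. The level falls with density in introns from 79.0% to 20.6%, and exons stay above introns in each bin.

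Position in the gene also went with the level. Cytosines 5 to 10 kb from the nearest start had 67.9 ± 0.820% (SD, n = 12), and those more than 100 kb away 75.5 ± 0.658%, a difference of 7.62 points over all members and of 2.37 points among members with at most 4 CpGs per window. First introns had 66.2 ± 1.03%, introns 2 to 5 had 72.3 ± 0.715% and later introns had 77.5 ± 0.596% (SD, n = 12). Along the gene from its start to its end, in steps of 20% of the length, the level was 67.9%, 69.7%, 71.2%, 74.8% and 77.9%. Where genes overlapped, the longest one set the intron number and the length. The 43 members within 1000 bp of the start of some other annotated transcript had 60.9 ± 1.87% (SD, n = 12), against 72.8 ± 0.690% for the rest. The order first intron below later introns, near below far, and near another start below the rest held in 12 of 12 samples.

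Where the cytosine lay relative to the enzyme site went with the level too. Of the 3718 cytosines, 52.7% were in a CCGG and 99.4% lay within 50 bp of one. Those in a CCGG had 78.0 ± 0.834% and the others 66.7 ± 0.839% (SD, n = 12), and the difference of 11.3 points was 6.74 points among members with at most 4 CpGs per window. Neighbouring members were alike. The median absolute difference in level was 4.93 points over all 1141 pairs of member CpGs 1 to 20 bp apart. It was 7.53 points at 20 to 100 bp, 16.4 points at 1 to 10 kb and 18.7 points at 10 to 100 kb. Close pairs share reads, which was not separated from shared state.

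Short sequence motifs around the members were counted in the same windows on both strands. GGGCGG, a core of the GC box bound by SP family factors, was in 7.53% of the windows of members and in 32.6% of the windows of all cytosines covered in all 12 samples; among members it was in 32.9% of those with a level under 20% and in 4.62% of those over 80%. TGANTCA, the AP-1 site, was in 5.46% of members' windows and 3.04% of all. CAGCTG, an E-box, was in 14.4% and 13.6%, and TGACGTCA, the cAMP response element, in 0.484% and 0.890%. A match is a description of these letters, not a bound site, and GGGCGG itself holds a CpG, so that its share moves with CpG density.

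The mean level of the intronic members did not separate the 4 groups. The DMSO samples had 73.2%, 72.2% and 72.0%, the DBP samples 73.7%, 72.6% and 72.6%, the DBP_agent samples 74.1%, 72.4% and 72.6%, and the DBP_BR samples 72.7%, 71.7% and 72.5%. All 4 groups overlapped. The group means were 72.5 ± 0.635%, 73.0 ± 0.637%, 73.0 ± 0.960% and 72.3 ± 0.551% (SD, n = 3 each), with an exact permutation p of 0.544 for the 4 groups. DBP exceeded DMSO by 0.497 points (two-sided exact permutation test, p = 0.4), DBP_agent exceeded DBP by 0.0502 points (exact, p = 1) and DBP_BR differed from DBP by -0.669 points (exact, p = 0.4; -0.890 without DBP_BR sample 1). With 3 samples against 3 the test cannot go below 0.1. The 9 DBP-treated samples together exceeded DMSO by 0.290 points (exact permutation test, p = 0.6); weighting cytosines by their reads instead of equally turned this to -1.72 points (exact, p = 0.0364), with samples between 67.5% and 71.2%.

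The share of cytosines with an intermediate level had its smallest values in the 2 agent groups, a difference that did not pass the test once adjusted. Since the chance that an estimate crosses a threshold depends on its reads, each cytosine was also thinned to 10 reads in each sample. After thinning, the share between 20% and 80% was 49.1%, 49.9% and 50.9% in the DMSO samples, 49.0%, 50.8% and 50.2% in DBP, 46.4%, 46.4% and 44.9% in DBP_agent, and 43.5%, 45.9% and 46.5% in DBP_BR. The 6 samples of the agent groups all lay below the 6 others, also without DBP_BR sample 1. Compared with DBP, the share differed by -4.07 points in DBP_agent and by -4.71 points in DBP_BR (two-sided exact permutation test, p = 0.1 for each, the smallest possible), and the 4 groups gave an exact p of 0.00552, which is 0.143 after Benjamini-Hochberg adjustment over the 30 share tests made. Without thinning the 4 means were 41.5%, 41.4%, 37.9% and 38.5% (exact, p = 0.0143). The thinned share over 80% had group means of 43.9%, 44.4%, 47.3% and 47.1% in the same order, and the share under 20% 6.17%, 5.65%, 6.83% and 7.61%. The thinned intermediate share also separated the 6 agent samples from the 6 others in other classes. Its highest agent sample and lowest other sample were 34.7% and 34.9% for exonic cytosines. They were 41.8% and 43.3% for intergenic cytosines, and 36.4% and 37.4% at 1 to 5 kb from a start. Within 1 kb of a start the samples overlapped. Total depth differed between the same samples, and its part in these differences was not tested beyond the thinning.

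**Figure D3:**
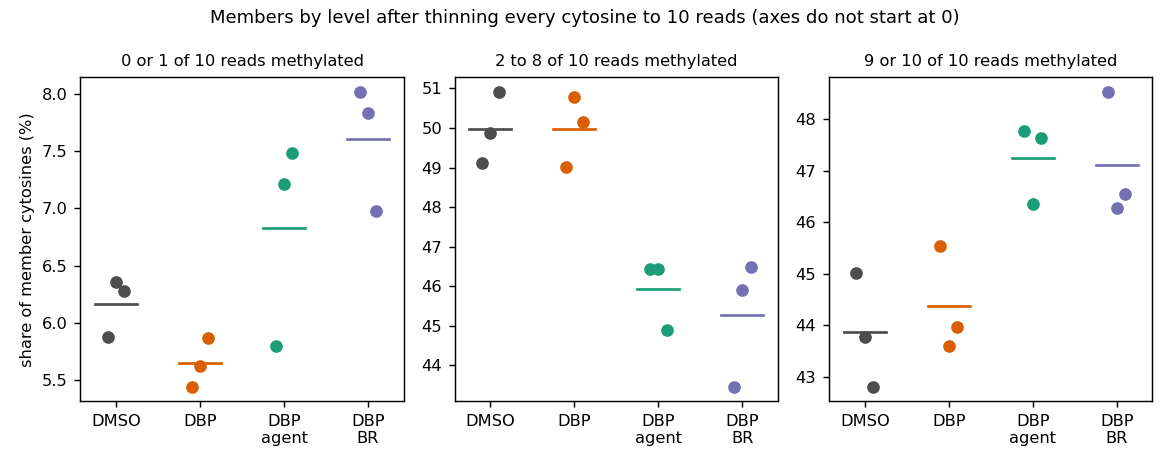
Share of the 3718 intronic cytosines (percent, y axis) with a level under 20%, from 20% to 80% and over 80% in each sample, after thinning each cytosine to 10 reads (y axes do not start at 0); points are samples and lines group means. The intermediate share is 43.5% to 46.5% in the 6 agent samples and 49.0% to 50.9% in the 6 others.

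Samples of a group differed at single intronic CpGs by more than read counting gives. For cytosines with a mean level of 20% to 80%, the median SD between the 3 samples was 10.7 points in DMSO, 9.79 in DBP, 11.4 in DBP_agent and 13.2 in DBP_BR, against 9.77, 9.04, 5.13 and 6.18 points from binomial counting alone. The mean squared Pearson residual was 1.81 and 1.69 in the shallow groups and 7.06 and 6.96 in the agent groups, where 1 is the value of pure counting. A test that treats reads as independent, like the logistic regression of the study's methods, does not include this spread.

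DBP treatment was compared with vehicle at single CpGs by that logistic regression, calling a CpG at a Benjamini-Hochberg q under 0.01 and a difference over 25 percentage points of reads pooled over the group. Of 5398 intronic CpGs tested, 11 were called (0.204%), 9 with more and 2 with less methylation in DBP. Over all 53618 CpGs tested the share was 0.0578%, with 0.0336% higher and 0.0242% lower. It was 0.0340% for exonic and 0.0483% for intergenic CpGs and 0.0762% at 1 to 5 kb from a start, on 1, 4 and 5 calls. In 10 of the 11 the 3 DBP samples did not overlap the 3 DMSO samples, beside 29 of all 31 called CpGs (93.5%) and 5.51% of all CpGs tested; the calls were selected for a wide difference. Directions are those of the samples as labelled. With edgeR's quasi-likelihood test, which estimates the spread between samples, 0 of the 5398 were called at an adjusted p under 0.01 (background 0%). An unadjusted p under 0.05 was found at 199 of the 5398, beside 2.67% of all CpGs tested. The calls below thus describe these 6 samples.

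The strongest call was in intron 4 of Spata13 at chr14:61342798-61342799. It had 51.1%, 52.5% and 40% methylation in the DMSO samples and 97.1%, 85.3% and 81.8% in the DBP samples, on 20 to 47 reads each. The means were 47.9 ± 6.84% and 88.1 ± 7.99% (SD, n = 3 each), and the logistic regression gave an adjusted p of 5.96e-06. The agent groups were scattered, with 76.7%, 82.2% and 36.8% in DBP_agent and 46.2%, 92.9% and 94.8% in DBP_BR.

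Higher levels in DBP, from near 0 in DMSO, were found in Arfip1 and Klraq1. In Arfip1, which encodes arfaptin 1, a partner of Arf GTPases at the Golgi, the CpG at chr3:84990777-84990778 had 8.51%, 0% and 0% in DMSO (0 of 38 and 0 of 28 reads, which allow up to 7.89% and 10.7%) and 52.0%, 27.3% and 12.5% in DBP (logistic regression, adjusted p = 0.000776). The lowest DBP sample was close to the highest DMSO sample there. In Klraq1, an endosomal coiled-coil protein gene, the CpG at chr17:88952526-88952527 had 0%, 8.33% and 0% in DMSO and 44.4%, 38.9% and 28.6% in DBP (logistic regression, adjusted p = 0.00658), on 10 to 22 reads, so that the 2 zeros allow up to 13.6% and 30%. It had 19.6%, 25.5% and 25.6% in DBP_agent and 20%, 0% and 4.08% in DBP_BR, and the last 0% was of 19 reads, which allow up to 15.8%. A second Klraq1 CpG, at chr17:88952504-88952505, went from 44.0 ± 23.4% under vehicle to 85.4 ± 12.6% under DBP (SD, n = 3 each; logistic regression, adjusted p = 0.00687).

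Both calls toward lower methylation were neighbouring CpGs in intron 9 of Disc1, a scaffold protein gene known from neurodevelopment. At chr8:127736689-127736690 the DMSO samples had 68.8%, 61.3% and 70.4%, and the DBP samples 31.2%, 37.0% and 21.7%. The groups were well separated, with means of 66.8 ± 4.84% and 30.01 ± 7.72% (SD, n = 3 each; logistic regression, adjusted p = 0.00744). The DBP_agent samples had 54.4%, 36.2% and 45.2%, all below DMSO, and the second was inside the DBP range. DBP_BR had no reads in sample 1 and 61.7% and 36.8% in the others. The neighbouring CpG at chr8:127736699-127736700 went from 60.6 ± 9.60% to 23.4 ± 9.65% (SD, n = 3 each).

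Of the other calls among the first 10, Auts2, a regulator of neuronal development, went from 59.2 ± 19.2% to 86.9 ± 4.91%, Fam82a1, a microtubule-associated protein gene, from 66.3 ± 13.6% to 92.6 ± 4.54%, and Ccdc88c, whose protein binds Dishevelled in Wnt signalling, from 39.1 ± 14.6% to 70.1 ± 7.57% (SD, n = 3 each). Ccdc60 went from 64.0 ± 23.4% to 87.1 ± 13.02%, and its groups overlapped. The remaining call, named after its values were seen because it is the eleventh, was in Slit1, an axon guidance ligand gene, with 35.5%, 32.3% and 39.3% in DMSO and 69.2%, 62.2% and 68.2% in DBP.

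**Figure D4:**
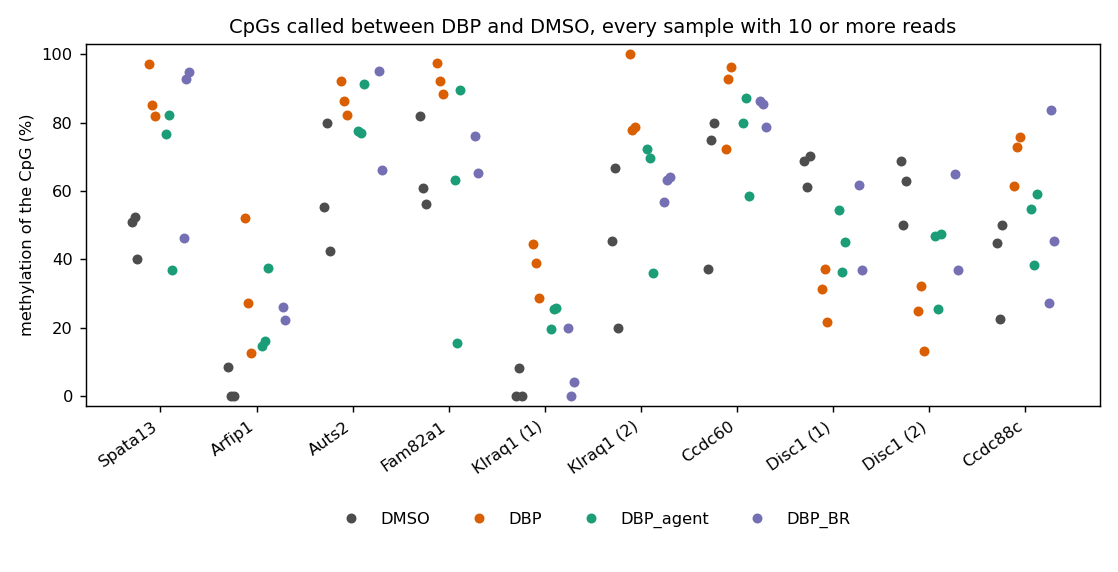
Methylation (percent, y axis) of the first 10 intronic CpGs called between DBP and DMSO (x axis, by host gene) in each sample with 10 or more reads there, coloured by group. DBP and DMSO overlap only at Ccdc60 among these CpGs, which were selected for a wide difference. The agent groups scatter between or across them.

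Clusters of 3 or more CpGs with gaps of at most 100 bp gave no call. Of 586 intronic clusters, 0 passed an adjusted p under 0.05 in edgeR's quasi-likelihood test (background 0% of 7912 clusters). An unadjusted p under 0.05 was found at 23 of them (3.92%), beside 4.41% of all clusters. A logistic regression on the summed reads, which leaves out the spread between samples, called 45, where 5.06% of all clusters were called. The cluster with the smallest p was the 4 CpGs of Disc1 at chr8:127736662-127736703, with 68.3%, 57.1% and 64.8% in DMSO and 25.4%, 35.8% and 21.6% in DBP (edgeR, adjusted p = 1). The Phactr2 cluster, in a gene for a regulator of phosphatase 1 and actin, had 18.1 ± 1.28% under vehicle and 39.2 ± 5.07% under DBP, and the Arfip1 cluster 8.23 ± 4.25% and 23.8 ± 14.8% (SD, n = 3 each). Dync1i1, a dynein subunit gene, had 77.3 ± 2.93% and 91.5 ± 1.72%, and Kcnab2, a potassium channel subunit gene, 88.3 ± 3.03% and 74.1 ± 3.27% (SD, n = 3 each; adjusted p = 1 for each in edgeR).

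In the comparison of DBP_agent with DBP, 140 of 11265 intronic CpGs were called (1.24%), 56 higher and 84 lower in DBP_agent. Over all 127381 CpGs tested the share was 0.754%, with 0.345% higher and 0.408% lower. More than 5000 bp from a start it was 1.10% for exonic and 1.09% for intergenic CpGs. It was 1.01% at 1 to 5 kb from a start and 0.436% within 1 kb. The intronic calls lay in 122 genes or gene pairs, and at 86 of the 140 CpGs the groups did not overlap, beside 63.3% of all 960 called CpGs and 5.49% of all tested. edgeR called 0 of the 11265 (background 0.000785%), with 323 at an unadjusted p under 0.05, beside 3.22% of all CpGs tested. The DBP samples here were the same 3 libraries as above, and DBP_agent was read more deeply, with medians of 65 and 20 reads over the tested intronic CpGs.

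Some of these calls were close to 0 or 100% in DBP_agent and farther from these bounds in DBP. In Kif26b, a kinesin gene needed in kidney development, the CpG at chr1:180564894-180564895 had 46.2%, 38.9% and 34.8% in DBP and 4.48%, 8.62% and 2.17% in DBP_agent (logistic regression, adjusted p = 3.50e-11). In Ksr2, a Raf kinase scaffold gene, the CpG at chr5:118094483-118094484 had 54.5%, 77.8% and 77.8% in DBP and 98.6%, 100% and 100% in DBP_agent. In both genes the agent samples were tightly grouped and did not overlap DBP, and both calls were selected for a wide difference. At Ksr2 the DMSO samples had 94.1%, 100% and 100%, nearer to DBP_agent than to DBP. At Kif26b DMSO had 53.8%, 0% and 0%, on 13, 8 and 1 reads. In Zbtb16, which encodes the zinc finger repressor PLZF, the CpG at chr9:48538384-48538385 was near neither bound. It had 43.8%, 61.1% and 32.1% in DBP, 66.1%, 84.5% and 84.1% in DBP_agent and 63.0%, 44.4% and 45.8% in DMSO.

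Elsewhere 1 agent sample carried much of the difference. In Lmf1, a lipase maturation factor gene, DBP had 88.5%, 94.1% and 92.3% and DBP_agent 73.9%, 49.3% and 8.57%. DMSO had 83.8%, 70.6% and 75% there. In Gramd1b, a sterol transporter gene, DBP had 61.1%, 76.9% and 72.7% and DBP_agent 60.9%, 25.9% and 4.48%. DMSO had 31.0%, 55% and 37.5% there, nearer in the mean to DBP_agent than to DBP. The spread within DBP_agent exceeded that within DBP at both. At Fam82a1 the DBP_agent samples had 63.2%, 15.4% and 89.5%, the last inside the DBP range.

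The rest of the first 10 were 4930449A18Rik (41.7 ± 15.5% in DBP, 83.0 ± 8.80% in DBP_agent), a CpG shared by Pigk and St6galnac5 (76.9 ± 8.17% and 41.7 ± 17.7%), Agap1, an Arf GTPase activating protein gene (51.7 ± 15.2% and 13.9 ± 9.61%), and Cyp3a44, a cytochrome P450 gene (70.8 ± 15.98% and 98.6 ± 2.47%; SD, n = 3 each). At Pigk/St6galnac5 the DMSO samples had 43.8%, 50% and 53.8%, nearer to DBP_agent than to DBP. DMSO means were 51.7 ± 27.5% at 4930449A18Rik, 27.0 ± 13.4% at Agap1 and 74.2 ± 28.0% at Cyp3a44 (SD, n = 3 each). Among 1237 intronic clusters, 0 passed in edgeR (background 0% of 17491). An unadjusted p under 0.05 was found at 44 of them (3.56%), beside 3.26% of all clusters. The logistic regression on summed reads called 225, where 13.8% of all clusters were called. The smallest p was at Sept9, a septin gene, with 36.1%, 33.3% and 24.4% in DBP and 13.7%, 5.33% and 4.86% in DBP_agent (edgeR, adjusted p = 1). The next were Dync1i1 (91.5 ± 1.72% and 71.3 ± 11.5%), Kif26b (36.2 ± 8.79% and 13.9 ± 4.64%), Trrap (88.1 ± 5.92% and 97.9 ± 1.35%) and Kif21b (7.70 ± 5.30% and 2.27 ± 0.376%).

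In the comparison of DBP_BR with DBP, 178 of 8956 intronic CpGs were called (1.99%), 59 higher and 119 lower in DBP_BR, in 155 genes or gene pairs. Over all 104443 CpGs tested the share was 0.999%, with 0.341% higher and 0.658% lower. More than 5000 bp from a start it was 1.54% for exonic and 1.60% for intergenic CpGs. It was 1.34% at 1 to 5 kb from a start and 0.492% within 1 kb. The groups did not overlap at 111 of the 178, beside 59.3% of all 1043 called CpGs and 5.69% of all tested. Leaving out any 1 of the 6 samples raised the count, to between 267 and 364, with 339 without DBP_BR sample 1. edgeR called 0 of the 8956 (background 0%), with 336 at an unadjusted p under 0.05, beside 3.43% of all CpGs tested.

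The first call lay inside Zfpm1, the gene of the GATA cofactor FOG1, and within Gm20388, a locus annotated across many genes of chromosome 8. At chr8:124820594-124820595 DBP had 34.0%, 16.3% and 17.1% and DBP_BR 74.4%, 58.5% and 65.5% (logistic regression, adjusted p = 1.99e-26). DMSO had 22.7%, 16% and 50%, and DBP_agent 46.4%, 28.8% and 57.7%. The 3 DBP_BR samples were above the 9 others.

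Dusp15, a phosphatase gene, was almost unmethylated in DBP at chr2:152771782-152771783, with 0%, 5.56% and 6.25%, and had 70%, 57.1% and 36.6% in DBP_BR (logistic regression, adjusted p = 3.82e-17). The 0% was of 13 reads, which allow up to 23.1%. The DMSO samples lay between them, at 28.6%, 28.6% and 33.3%. Runx3, a Runt family transcription factor gene, had 46.7%, 57.1% and 54.2% in DBP and 98.1%, 76.5% and 87.3% in DBP_BR at chr4:134685689-134685690. DMSO had only 4 to 6 reads per sample there.

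Dnmbp, which encodes Tuba, an exchange factor for Cdc42, held 2 of the first 10. At chr19:43971038-43971039 DBP had 92.9%, 58.3% and 60% and DBP_BR 26.7%, 14.5% and 14.5%. At chr19:43967877-43967878 DBP had 76.8%, 61.3% and 78.6% and DBP_BR 92.3%, 25.2% and 57.5%, and there the groups overlapped through sample 1. In Ctnna3, a cadherin-binding catenin gene that contains Lrrtm3, sample 1 also stood alone, with 0% (0 of 13 reads, which allow up to 23.1%) against 71.9% and 70.3% in the other DBP_BR samples and 44.1%, 20.7% and 32.1% in DBP. DMSO means were 45.7 ± 21.3% and 66.3 ± 3.56% at the 2 Dnmbp CpGs in that order and 48.0 ± 9.96% at Ctnna3 (SD, n = 3 each).

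The others were Gm20388/Tcf25 (81.0 ± 7.54% in DBP, 43.9 ± 16.2% in DBP_BR), Mslnl, a mesothelin-like gene (47.7 ± 18.01% and 13.7 ± 3.14%), Fam113b (72.5 ± 12.5%, and 100% in all 3 DBP_BR samples) and Ttll8, a tubulin glycylase gene (41.9 ± 10.6% and 77.0 ± 12.5%; SD, n = 3 each). DMSO means were 62.2 ± 3.72% at Gm20388/Tcf25, 25.2 ± 3.59% at Mslnl, 73.9 ± 29.6% at Fam113b and 63.4 ± 3.14% at Ttll8 (SD, n = 3 each). Among 951 intronic clusters, 0 passed in edgeR (background 0% of 14114). An unadjusted p under 0.05 was found at 36 of them (3.79%), beside 4.13% of all clusters. The logistic regression on summed reads called 205, where 16.6% of all clusters were called. The smallest p was at Epha6, an ephrin receptor gene, with 93.0%, 91.1% and 91.5% in DBP and 100% in all DBP_BR samples (edgeR, adjusted p = 0.903). Runx3 followed with 50.6 ± 8.06% and 80.3 ± 6.57%, then Inpp5a (58.1 ± 25.4% and 90.5 ± 3.73%), 1110012J17Rik (87.0 ± 2.83% and 98.8 ± 2.17%) and Tmem189 (73.6 ± 4.19% and 95.4 ± 4.03%; SD, n = 3 each).

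A single logistic regression over all 4 groups gave a q under 0.01 at 934 of 3735 intronic CpGs (25.01%), where 19.5% of all 38007 CpGs did. Of the 5 with the smallest q, Dnmbp and Gm20388/Zfpm1 are described above. Pdgfa, a growth factor gene, had group means of 69.2 ± 7.44%, 85.4 ± 8.68%, 95.5 ± 5.33% and 69.7 ± 10.1% in DMSO, DBP, DBP_agent and DBP_BR (SD, n = 3 each). At Kdm1b, a histone demethylase gene, and Scap, a sterol sensor gene, the result rested on DBP_BR samples 2 and 3, with 74.9% and 92.8% at Kdm1b and 74.0% and 81.6% at Scap. The 10 other samples had 91.3% or more at both.

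Inside introns, 40 clusters had 5 or more members covered in all 12 samples. Of these, 11 had a mean under 20% in every sample, 10 had a mean over 80% in every sample, 1 stayed between 35% and 65%, and 18 moved across these bounds. The low clusters were chosen for a low level in every sample. Asb18, an ankyrin repeat and SOCS box gene, held 11 cytosines at 7.98% on average, with samples from 2.85% to 11.1%, and 5 more at 5.93% elsewhere in the same intron. Adk, the adenosine kinase gene, held 9 cytosines at 2.96%, with samples from 0.585% to 5.50%.

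The other low clusters were in a region shared by 2610528E23Rik and Filip1l (14.5%), in Scn4b, a sodium channel subunit gene (8.50%), in Wnt3a, a Wnt ligand gene (10.9%), in Epha3, an ephrin receptor gene (6.61%), and, beyond the first 8, in Kif21b (4.60%), Gata4 (10.8%), Cxxc5 (12.3%) and Elfn1 (8.70%). The highest sample at any of these 11 was 19.7%, at Wnt3a in DBP_BR sample 1. All lay more than 5000 bp from the start of any annotated transcript. The nearest, Elfn1, was 5.12 kb away.

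The stretch at an intermediate level was in Anks1b, a postsynaptic scaffold gene, whose 6 cytosines had 57.1%, 56.4% and 51.6% in DMSO, 46.2%, 58.6% and 43.9% in DBP, 57.1%, 38.5% and 49.0% in DBP_agent and 37.6%, 52.8% and 59.2% in DBP_BR. The groups overlapped. The high clusters included Pinx1, a telomerase inhibitor gene (96.4%), Gm20388/Gse1 (95.8%), Macrod2 (94.9%), Ccdc147 (94.4%), Phlpp1 (94.2%), Fibcd1 (93.1%), Grik3, a glutamate receptor gene (92.4%), Map2k5 (92.3%), Tpcn1 (91.9%) and Ksr2 (87.5%); the high clusters were listed after their values were seen. The least steady cluster by range was BC057022, again named after its values were seen, with 29.9% and 88.6% in DBP_BR samples 2 and 3.

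**Figure D5:**
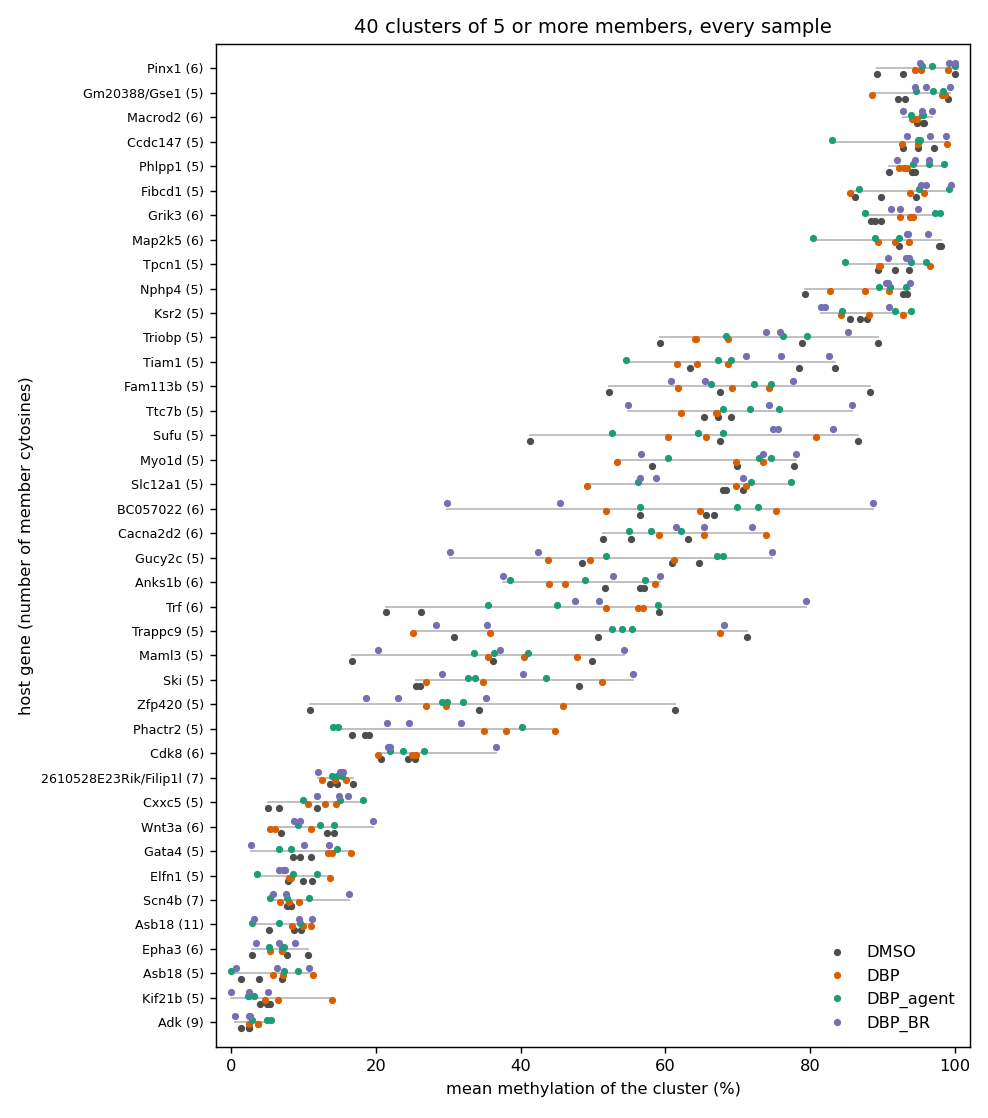
Mean methylation (percent, x axis) of the intronic clusters of 5 or more cytosines covered in all 12 samples, 1 row per cluster; points are samples, coloured by group, and lines span their range. The 11 low clusters lie under 20% and the 10 high clusters over 80% in each sample, and the others spread widely within groups.

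Among the genes with most members covered in all 12 samples, levels ran from 4.196% to 84.2%. Adk (12 members, 4.196%) and Asb18 (16 members, 7.34%) were low, and Fgfr2, a fibroblast growth factor receptor gene (10 members of its own, 55.0%), Trappc9, a vesicle transport gene that hosts an imprinted transcript in brain (13 members, 57.2%), and Gm20388 (59 members, 59.7%) were intermediate. Slc39a11 (66.5%), Zbtb7c (69.2%), Cux2 (73.0%), Camta1 (75.4%), Csmd2 (76.4%), Fam113b (77.4%), Grik3 (78.7%), Tiam1 (81.0%), Ksr2 (83.2%) and Nphp4 (84.2%) held 11 to 15 members each. In Trappc9 the samples ranged from 43.9% to 69.6%, and the group means of 61.1 ± 3.25%, 56.5 ± 9.06%, 60.5 ± 8.76% and 50.7 ± 8.63% (SD, n = 3; DMSO, DBP, DBP_agent, DBP_BR) overlapped. Gm20388 and Fgfr2 are annotated at over 3000 kb each, and without their members 3609 of the 3718 remained.

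Lists of marker genes held few members in all 12 samples. Genes of squamous epithelium had 5 cytosines in 3 of 40 annotated genes, at 36.3% and with samples from 24.1% to 57.6%. Skeletal muscle genes had 13 (73.7%), immune genes 19 (79.9%), endothelial genes 13 (56.2%), fibroblast and matrix genes 11 (65.7%), neural genes 54 (73.9%) and hosts of imprinted regions 14 (57.2%), beside 72.7% for all members. Genes of oral cancer signalling had 35 cytosines, with 65.7 ± 1.30% in DMSO, 66.6 ± 1.37% in DBP, 67.2 ± 2.58% in DBP_agent and 61.9 ± 1.34% in DBP_BR (SD, n = 3 each). Of these, 16 were in Fgfr2, which had 56.4 ± 4.79%, 57.7 ± 1.36%, 58.5 ± 2.70% and 52.8 ± 1.44% (SD, n = 3 each). None of these list levels was tested.

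Listed genes with 5 or more members otherwise had Pax5, a B cell factor gene, at 77.8%, Runx1 at 74.2%, Ryr1, the calcium release channel gene of muscle, at 81.0%, Rbfox3 at 83.1% and Ptprn2 at 34.7%. In Ptprn2 single cytosines ran from 1.51% to 84.1%. Ryr1 is a gene that skeletal muscle transcribes, and its 5 members covered in all 12 samples were between 77.4% and 83.7% each. In the 6 deep libraries its 16 members had 54.6 ± 3.17% (SD, n = 6), and 31.2% of them had a level under 20%.

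The 6 deep libraries of the agent groups gave a wider view, with 20900 intronic members in 4241 genes at 71.0 ± 0.726% (SD, n = 6). There, squamous epithelium genes had 69 cytosines at 61.3 ± 1.97%, neural genes 371 at 62.9 ± 1.05%, immune genes 155 at 65.6 ± 1.84%, muscle genes 89 at 69.3 ± 2.01%, endothelial genes 46 at 72.4 ± 2.10%, fibroblast and matrix genes 66 at 72.9 ± 2.77%, oral cancer signalling genes 239 at 68.5 ± 1.63% and imprinted hosts 69 at 59.996 ± 2.93% (SD, n = 6 each). Genes named after their values were seen were Itgb4, an integrin gene of the epithelial hemidesmosome, with 12.6% over 11 cytosines, Celf4, a neural splicing factor gene, with 18.3% over 32, Bcl11b with 44.0% over 23, Kcnq1, host of an imprinted antisense transcript, with 54.2% over 33, and Csmd1 with 90.7%. The lists differed in position: the median distance to a start was 12.05 kb for squamous epithelium genes, 40.6 kb for immune, 66.0 kb for neural and 80.3 kb for imprinted-host members, beside 23.4 kb for all members, and imprinted-host members had a median of 7 CpGs per window beside 5. Their part in the list levels was not tested.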

How the data were processed

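Soft tissues of the mouse oral cavity were profiled by ERRBS in 12 samples, grouped by the labels' treatment, with 3 samples in each of 4 groups. Per the submitters' processing notes, reads were trimmed with Trim Galore 0.3.3 and aligned with Bismark 0.10.1; the build was mm9. The authors deposited, for each sample and cytosine, counts of methylated and unmethylated reads and the percent methylation computed from them; the percent was recomputed from the counts and matched within 0.01 points at every cytosine. No reads were reprocessed, and removal of duplicate reads cannot be checked from these files. Intervals and limits from counts cover counting error only; a count of 0 was taken to allow 3 reads.

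Members were found from GENCODE vM1 on mm9, and sequences were read from that genome. The members and lists were chosen with earlier results of these data known. Mean levels were compared with exact permutation tests. Single CpGs were tested as in the study's methods: 10 or more reads, at most the 99.9th percentile of coverage, coverage scaled to the highest median, strands merged, presence in every sample compared, a likelihood ratio test in a logistic regression, and adjustment by Benjamini-Hochberg over all CpGs of the genome. Clusters were tested with edgeR 4.0.16 (R 4.3.3) on methylated against unmethylated reads with sample effects, a single CpG at a time as an alternative. Both were run on simulated data with the read depths of DBP and DMSO only. The data simulated for the logistic regression held no spread between samples of a group. Other steps used Python 3.11.15, numpy 2.4.6, scipy 1.17.1 and pandas 2.3.3.

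The genes named were the 15 with most members in all 12 samples; per comparison the 10 called CpGs with the smallest q and the 5 clusters with the smallest adjusted p; the 8 largest low and intermediate clusters of 5 or more members; listed genes with 5 or more members; and the 5 CpGs with the smallest p over the 4 groups. Other genes are said to be chosen after their values were seen. Alternatives were the read minimum, pooled reads, the distance to a start, coverage scaling, the upper filter, edgeR on single CpGs, and leaving out each sample. The labels say that lanes held several samples but not which samples shared one, so no batch could be tested.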

Additional observations from a re-analysis of the deposited data

How the results depend on the processing

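The cause of the changes below was not tested. With reads pooled over cytosines, the mean differences were -1.16 points (DBP minus DMSO), -1.13 (DBP_agent minus DBP) and -1.72 (9 DBP-treated samples minus DMSO), all opposite in sign to the equal weighting; a minimum of 20 reads gave -0.0338 for DBP_agent minus DBP. Leaving out 1 sample gave 0.129 to 0.858 points for DBP minus DMSO, -0.501 to 0.418 for DBP_agent minus DBP (negative without DBP_agent sample 1, at -0.501, DBP sample 2, at -0.117, or DBP sample 3, at -0.150), -0.890 to -0.302 for DBP_BR minus DBP and 0.0572 to 0.652 for the 9 samples. Intronic minus exonic levels were -3.10, -2.94, -10.0, -17.2 and -1.14 points within the 5 density bins. The 4-group spread of the share over 80% was 2.94 points (exact permutation p = 0.162), and 3.39 after thinning (exact, p = 0.00994). Called CpGs, 11, 140 and 178 in the 3 comparisons (DBP, DBP_agent, DBP_BR), became 6, 627 and 579 with a minimum of 5 reads, 4, 12 and 25 with 20 reads, 4, 62 and 110 without scaling, and 0 each in edgeR; at q under 0.05 DBP against DMSO had 29. Leaving out 1 sample gave 4 to 12, 180 to 339 and 267 to 364. For DBP against DMSO, the count was 4 without DBP sample 1, 6 without DBP sample 2 and 5 without DMSO sample 3. For DBP_agent it was 339 and 262 without DBP_agent samples 1 and 2, and 307, 282 and 259 without DBP samples 1, 2 and 3. For DBP_BR it was 339 and 352 without DBP_BR samples 1 and 3, and 364, 327 and 295 without DBP samples 1, 2 and 3. Clusters called by logistic regression on summed reads were 45 of 586, 225 of 1237 and 205 of 951, beside 5.06%, 13.8% and 16.6% of all clusters, against 0 in edgeR with each other setting tried. Replicate numbers did not pair the samples (correlations of deviations from -0.0179 to 0.0126); with a replicate block the calls were 10, 135 and 174 and the exact sign-flip permutation p of the mean differences 0.25, 1 and 0.25, where 0.25 is the smallest possible.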

Other observations

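Intronic CpGs of the X chromosome, chosen by the same rule apart from the chromosome, were not among the members. In the 6 deep libraries of the DBP_agent and DBP_BR groups, 380 such cytosines had a mean level of 67.1 ± 1.73% (SD, n = 6), beside 71.0 ± 0.726% for the 20900 autosomal cytosines. Of the X-linked cytosines, 17.4% had a level under 20%, 27.1% from 20% to 80% and 55.5% over 80%, and the autosomal shares were 7.80%, 39.5% and 52.7%. In all 12 samples 33 X-linked cytosines were covered, with 63.9 ± 7.13% (SD, n = 12). These differences were not tested.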
